A study of Mus musculus with 2 samples.

Results

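Glioblastoma stem cells are described by a small set of surface molecules and self-renewal genes, and 10 of these were followed here: Cd44, Prom1, Lgr5, Fut4, Msi1, Msi2, Bmi1, Nr2e1, Sall2 and Fabp7. They were taken as described markers of such cells out of 23780 genes named on the array, and every probe whose RefSeq accession belongs to them was kept, 18 probes in all. The cells were a mouse glioblastoma stem cell line derived from brain tumours induced with a Sleeping Beauty (SB) transposon and kept as neurospheres without serum, with EGF and bFGF added. The control group carried a lentiviral non-target shRNA and the other group a lentiviral shRNA against Gli2, a transcription factor of the Hedgehog pathway, both as stably transduced cells of the same line. Each group was 1 array, so the comparison has no replicate check, no p-value is given, and the results hold for 1 line with no second Gli2 shRNA among the samples.

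These genes mark and maintain stem cells in different ways. CD44 and prominin-1 (CD133) are surface glycoproteins used to sort tumour-initiating cells, LGR5 is a receptor for R-spondins that strengthens Wnt signalling, and FUT4 is a fucosyltransferase that builds the Lewis X sugar recognised as CD15 or SSEA-1. Musashi proteins bind messenger RNAs of neural progenitors, BMI1 is a Polycomb subunit that silences cell cycle inhibitors, NR2E1 (TLX) is an orphan nuclear receptor of adult neural stem cells, SALL2 is a zinc finger transcription factor and FABP7 (BLBP) a fatty acid-binding protein of radial glia.

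Gli2, the targeted gene, had a processed signal of 98.1 in control cells and 57.9 in Gli2 shRNA cells, a log2 difference of -1.04 ± 0.22, or 48.7% of its control level. After normexp background correction that difference was -0.64. That correction adds an offset of 50 to each signal, which compresses the ratios of dim signals by construction. Differences are given as Gli2 shRNA minus control, each value being the log2 processed signal minus the 75th percentile of its own array (329 and 399 on the signal scale). The error is that of the scanner software for the spots and says nothing of the spread between cultures. A probe counted as measured where its well-above-background flag was set, and the lowest such signals were 12.8 for the control array and 15.2 for the other. Both arrays shared 1 slide and 1 scan. Markers of neural stem cells were measured on both arrays, with control and Gli2 shRNA signals for Sox2 (5594 and 6516), Nes (11613 and 19441), Olig2 (2359 and 2444) and Sox9 (602 and 527).

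The promoter stretches of 4 genes are shown: Cd44 and Nr2e1, each lower on its brightest probe by more than the software error, and Bmi1 and Fabp7, whose differences were within it. Each runs from 250 bases before to 50 bases after a RefSeq start on the strand of the gene in GRCm38.p6, with GC boxes (GGGCGG on either strand, overlapping matches joined) in capitals. Cd44 is at chr2:102901616-102901915 (minus strand), Nr2e1 at chr10:42583541-42583840 (minus strand), Bmi1 at chr2:18676768-18677067 (plus strand) and Fabp7 at chr10:57784673-57784972 (plus strand).
Cd44: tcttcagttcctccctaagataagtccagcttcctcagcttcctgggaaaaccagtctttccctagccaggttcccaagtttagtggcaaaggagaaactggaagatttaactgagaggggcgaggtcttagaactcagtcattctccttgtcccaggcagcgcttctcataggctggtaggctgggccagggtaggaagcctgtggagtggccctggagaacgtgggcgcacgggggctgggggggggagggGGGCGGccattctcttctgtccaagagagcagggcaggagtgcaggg
Nr2e1: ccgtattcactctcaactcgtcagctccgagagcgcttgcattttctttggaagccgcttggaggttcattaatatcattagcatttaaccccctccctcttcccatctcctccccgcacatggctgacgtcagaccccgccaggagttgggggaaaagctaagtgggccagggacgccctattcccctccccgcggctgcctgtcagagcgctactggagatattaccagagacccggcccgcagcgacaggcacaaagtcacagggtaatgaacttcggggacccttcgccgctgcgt
Bmi1: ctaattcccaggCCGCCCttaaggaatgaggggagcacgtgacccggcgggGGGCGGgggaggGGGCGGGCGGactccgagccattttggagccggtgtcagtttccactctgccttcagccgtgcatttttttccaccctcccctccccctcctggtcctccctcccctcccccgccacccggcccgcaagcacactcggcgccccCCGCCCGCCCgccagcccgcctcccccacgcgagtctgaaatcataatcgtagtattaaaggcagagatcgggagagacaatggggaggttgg
Fabp7: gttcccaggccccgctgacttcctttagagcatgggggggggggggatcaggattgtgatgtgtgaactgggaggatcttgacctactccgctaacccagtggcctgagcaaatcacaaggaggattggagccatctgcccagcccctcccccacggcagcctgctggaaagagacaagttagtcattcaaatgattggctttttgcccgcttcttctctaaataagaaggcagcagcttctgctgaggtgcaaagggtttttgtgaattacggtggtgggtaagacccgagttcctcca

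The 4 stretches differ in base composition. The Cd44 stretch was 58% G or C with 1 GC box, and its CpG pairs were at 0.25 of the number its base composition gives. Nr2e1 had the same 58% G or C with a CpG ratio of 0.77 and no GC box. Bmi1 had 66.3% G or C, a CpG ratio of 0.71 and 6 GC boxes, some overlapping, and Fabp7 had 54% G or C, a ratio of 0.28 and no GC box. A GC box was present in 35.7% of the 32851 promoters in the table. The letters of a GLI binding motif, GACCACCCA on either strand, were in none of the 12 stretches listed for 8 of the 10 genes, and neither was the looser form GACCNCCCA, which contains the first. All promoters held these at 0.253% and 0.977%, so a match in any stretch is uncommon.

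Most of the stem cell genes were at nearly the same level with and without the Gli2 shRNA. By their brightest probe, 7 of the 10 were measured on both arrays, and 6 of these 7 differed by no more than the software error, with log2 differences from -0.18 (Sall2) to 0.14 (Bmi1). Cd44 was the exception, at -0.80 ± 0.20. Of all 14559 genes measured on both arrays, 53.8% differed by no more than their software error. No member measured on both arrays reached 2-fold, against 3.63% of all 14559 genes so measured. Nr2e1 was measured on the control array only, Prom1 on the Gli2 shRNA array only and Fut4 on neither.

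The median of the 7 members was -0.07, beside 0.0029 for all 14559 genes, and 6 lay below 0 and 1 above. Of all genes, 49.7% lay below 0. With median scaling, which moved the median of all genes to 0.14, 5 of the 7 lay above 0 and the members' median was 0.06. Median scaling adds the same amount to every gene, and the authors' deposited values also differ by a constant from those used here. Neither can therefore change a gene's place relative to the median of all genes. Relative to the median of all genes, 6 of the 7 lay below it and 1 above it under each of the 6 processings. Across all genes, 50.8% of those past 2-fold were higher, and this share was 68.6% with median scaling and 40.1% with normexp.

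**Figure D1:**
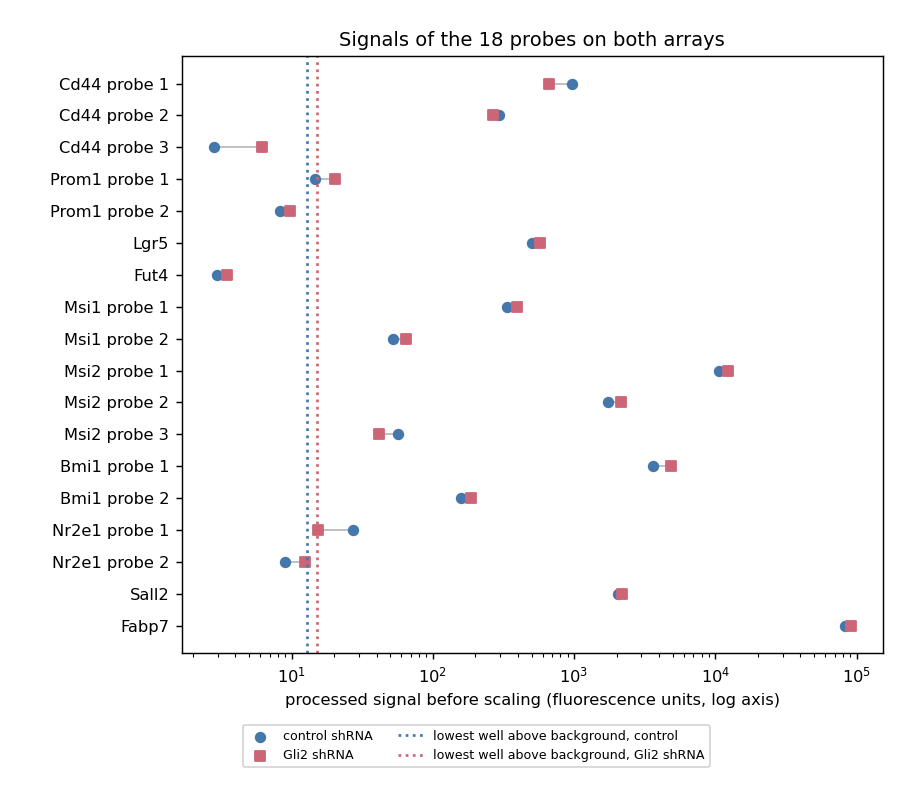
Processed signal before scaling of each of the 18 probes (log axis, fluorescence units) on the control array (circles) and the Gli2 shRNA array (squares), 1 array each, with dotted lines at the lowest signal well above background. Most pairs lie close together, and both Prom1 probes, both Nr2e1 probes, Fut4 and the third Cd44 probe lie near or under the dotted lines. Levels of different probes cannot be compared with each other.

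Cd44, the hyaluronan receptor, was lower in the Gli2 shRNA cells on both of its measured probes. The brighter one (A_55_P2912261, RefSeq NM_009851, chromosome 2) had a signal of 959 in control cells and 669 in Gli2 shRNA cells, which after scaling is 57.5% of the control level. The next (A_55_P2166501, same accession) had 296 and 269, a difference of -0.42 ± 0.21, or 1.33-fold lower. Both differences exceed the software error, by 3.91 and 2.02 times. The third probe (2.82 and 6.17) was under the lowest measured signal on both arrays and gives no level.

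Cd44 was the 1 member of the 7 past 1.5-fold, a smaller size rule added after the values were seen, at 1.74-fold lower. Of all genes measured on both arrays, 12.5% were past 1.5-fold and 6.55% were lower by it, so a difference of this size was not rare on these arrays. Among the 4935 genes whose dimmer signal lay between 100 and 1000, as for Cd44, 13.0% were past 1.5-fold and 6.10% lower by it. The brighter probe stayed between -0.82 (cyclic loess) and -0.66 (median scaling) under the alternative processings. The 2 measured probes differed from each other by 0.38, beside a median range of 0.16 over the 5415 genes with several measured probes. Of those genes, 78.9% had a smaller range. For genes with 2 measured probes and a dimmest signal of 100 to 1000, as for Cd44, the median was 0.11. In a bulk RNA sample, fewer cells carrying Cd44 and less Cd44 RNA per cell cannot be told apart.

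CD44 is also carried by astrocytes and leukocytes, so markers of both are given beside it. All 8 astrocyte markers of 10 that were measured on both arrays lay below 0, with a median of -0.33; with median scaling 7 lay below 0 and 1 above, with a median of -0.20. Mlc1, an astrocyte membrane protein, was the 1 past 2-fold (12.5%, beside 3.63% of all genes). It had signals of 5479 and 3149, or 2.11-fold lower (-1.08 ± 0.20), and with median scaling it was within 2-fold. The 10 astrocyte markers summed to a scaled level, in units of each array's 75th percentile signal, of 163 (control) and 134 (Gli2 shRNA). Most of that sum was Aldoc, with 37199 of the 53744 signal units summed in control cells and a difference of -0.17 ± 0.20. Gja1 was not above background on either array. Of 10 microglia and macrophage markers, 5 were measured on both arrays, with a median of -0.13. The summed scaled level of the 10 was 16.9 and 15.9. Most of it was Itgam, with 4694 of the 5576 signal units summed in control cells. Ptprc, Cx3cr1, Trem2 and C1qa were above background on neither array. The part of these cells in the Cd44 difference was not tested.

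**Figure D2:**
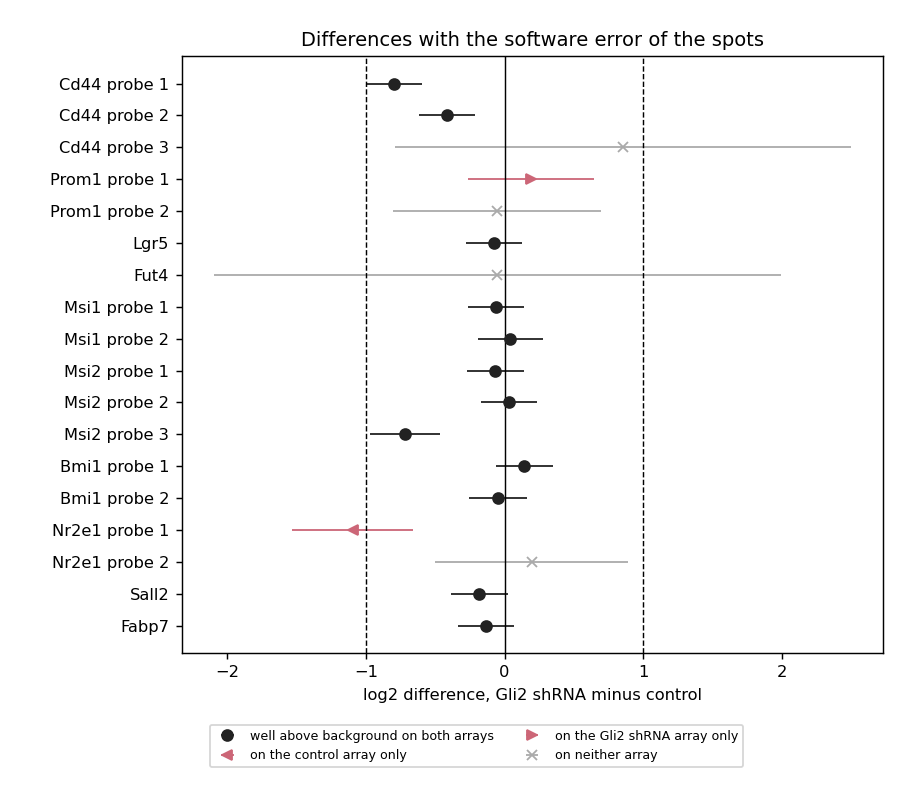
Log2 difference of each of the 18 probes (Gli2 shRNA minus control, x axis) with the software error as bars. Filled circles are probes well above background on both arrays, triangles on 1 array, crosses on neither, and dashed lines mark 2-fold. The 2 measured Cd44 probes, the third Msi2 probe and the first Nr2e1 probe lie left of 0 beyond their error bars, and the other measured probes have bars that reach 0.

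The molecules that CD44 works with lay on both sides of 0. Of 20 genes of its ligands, partners and sheddases on the array, 13 were measured on both arrays, with 7 above 0, 6 below 0 and a median of 0.06. Msn, a protein linking CD44 to actin, had signals of 21030 and 34805, a difference of 0.45 ± 0.20. Adam10, a protease that sheds the CD44 ectodomain, had 4095 and 3383 and differed by -0.55 ± 0.20, with -0.52 on its other probe. The CD44 ligand osteopontin (Spp1) had 365 and 316, a difference of -0.48 ± 0.21.

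The hyaluronan synthase gene Has2 was close to background (20.1 and 23.5) and differed by -0.05 ± 0.35, and Has1 and Has3 were not above background. Of this group 1 gene was past 2-fold (7.69% of those measured on both arrays, beside 3.63% of all genes). It was Cemip, a hyaluronan-degrading protein, at 13.4 and 35.0, or 2.15-fold higher. That value rests on a signal near the measured minimum. It was 0.16 with normexp, and the other Cemip probe, measured on the control array only, went the other way (21.2 and 13.1).

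Prom1, which encodes the CD133 antigen, was at the limit of the measurement. Its brighter probe had 14.6 in control cells and 20.2 in Gli2 shRNA cells, the latter alone counting as measured, and the scaled difference of 0.19 was smaller than its software error of 0.45. The other probe (8.34 and 9.74) was above background on neither. No difference in Prom1 beyond the software error was seen, and with the control signal not above background a decrease could not be seen on these arrays.

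Fut4, the fucosyltransferase behind the CD15 epitope, was not above background on either array (2.98 and 3.49). Fut9, which builds the same Lewis X sugar in brain, was measured on both arrays by each of its 3 probes. Its brightest had 149 and 133, a difference of -0.44 ± 0.21, and the other probes gave -0.54 and -0.40. Of the 10 fucosylation and related genes listed, 7 were measured on both arrays with a median of 0.0028, and none was past 2-fold. The lowest and highest were Fut10 (-0.55 ± 0.20) and Pofut2 (0.50 ± 0.20), an enzyme of protein O-fucosylation whose other probe gave 0.05.

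Lgr5, the R-spondin receptor and marker of cycling epithelial stem cells, was measured on both arrays by its 1 probe (NM_010195, chromosome 10). It gave 500 in control cells and 575 in Gli2 shRNA cells, which after scaling is 94.9% of the control level (-0.07 ± 0.20). Its relative Lgr4 had 183 and 261, a difference of 0.24 ± 0.21. Lgr6, Rspo1, Rspo2, Rspo3 and Rspo4 were above background on neither array, so a receptor was measured without its ligands.

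Among the other genes of this pathway, Znrf3, the ubiquitin ligase that R-spondins counter, was the lowest. Its brightest probe had 451 and 365 (-0.58 ± 0.20), and the other probes gave -0.86 and -0.98. Axin2, a feedback target of Wnt signalling, differed by -0.16 ± 0.20, and Lrp6, a Wnt co-receptor, by 0.09 ± 0.20. Smoc2, a secreted matrix protein expressed in Lgr5-positive intestinal stem cells, was measured on the Gli2 shRNA array only, with 6.24 and 93.6. Its lower bound was 6.05-fold higher, on a log2 difference with a software error of 0.69, and is no minimum for the gene. With normexp its difference was 0.92, and its other probe was above background on neither array (5.18 and 13.2).

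Both Musashi genes were at similar levels in the 2 arrays. Msi1 (NM_008629, chromosome 5) had 337 and 392 on its brighter probe, a difference of -0.06 ± 0.20, and 52.1 and 65.0 on the other, a difference of 0.04 ± 0.24. Msi2 (NM_001363194, chromosome 11) had 10670 and 12345 (-0.07 ± 0.20) on one probe and 1741 and 2160 (0.03 ± 0.20) on the next.

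The remaining Msi2 probe differed from these. It is assigned to another RefSeq transcript, NM_001201341, and had 56.6 in control cells and 41.7 in Gli2 shRNA cells, a difference of -0.72 ± 0.25, or 60.8% of the control level. With normexp the difference was -0.39. The 3 Msi2 probes spanned a range of 0.75, wider than in 93.3% of the 5415 genes with several measured probes. Most of those genes had 2 measured probes, and a range tends to widen with more probes. Dim probes of 1 gene also differ more: the median gap was 0.25 for pairs whose dimmest signal was under 100. It was 0.06 where that signal was over 1000.

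Other RNA-binding proteins of neural progenitors and the Musashi target Numb were within 2-fold by their brightest probe in all of the 13 that were measured on both arrays, with a median of 0.07. With median scaling 1 of the 13 was past 2-fold. The probes of Elavl4, a neuronal RNA-binding protein, disagreed: the brightest differed by -0.12 ± 0.20, and a dimmer one, at 71.7 and 20.7, by -2.07 ± 0.32. Numb, the Notch inhibitor whose messenger RNA Musashi binds, had 77.4 and 113 and differed by 0.26 ± 0.21. Its relative Numbl was the highest of the group, at 801 and 1771 (0.87 ± 0.20), with 0.56 on its other probe. The lowest was Elavl1, a widely expressed stabiliser of messenger RNAs, at -0.33 ± 0.20.

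**Figure D3:**
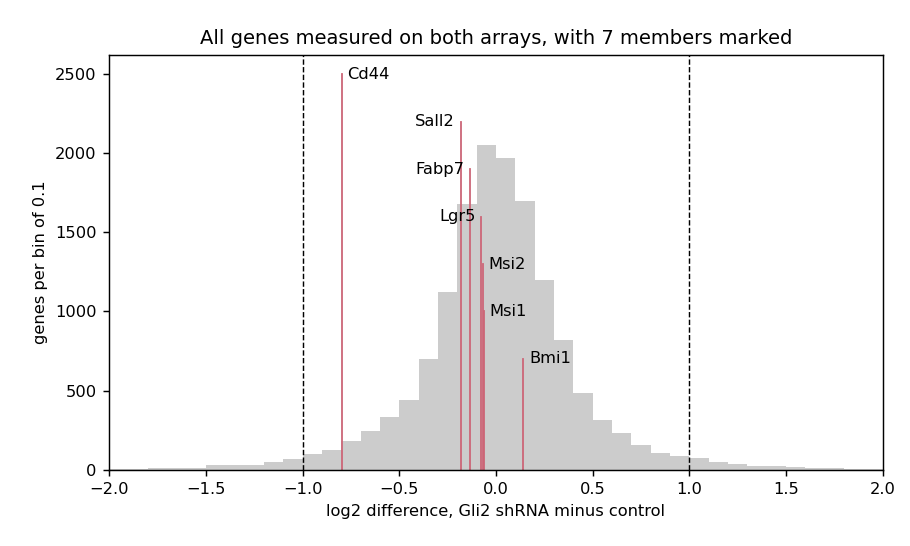
Histogram of the log2 differences (Gli2 shRNA minus control, x axis) of the genes measured on both arrays, in bins of 0.1, with the 7 members measured on both drawn as lines whose height only separates the labels. Dashed lines mark 2-fold, and 42 genes lie outside the plotted range. Cd44 stands at -0.80 and the other 6 lie between -0.18 and 0.14, in the middle of the distribution.

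Bmi1, the Polycomb subunit, had 3625 in control cells and 4848 in Gli2 shRNA cells on its brighter probe (NM_007552, chromosome 2), a difference of 0.14 ± 0.20. The other probe had 159 and 187, a difference of -0.05 ± 0.21. Cdkn2a, the locus of the p16 and p19 inhibitors that BMI1 represses, was measured on both arrays at 16019 and 20263 (0.06 ± 0.20), with 0.21 on its other probe.

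All 18 listed genes of Polycomb repressive complex 1 and its target locus were measured on both arrays, 10 above 0 and 8 below, with a median of 0.04 and none past 2-fold, though 1 was with median scaling. The ubiquitin ligase subunits differed in opposite directions. Ring1 had 164 and 384, a difference of 0.95 ± 0.21 that was 0.51 with normexp, and Rnf2 (Ring1B) had 1323 and 1271, a difference of -0.33 ± 0.20 with -0.23 and -0.11 on its other probes. The lowest was Phc1, a Polyhomeotic subunit, at 477 and 335 (-0.79 ± 0.20).

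Nr2e1 was lower on its brighter probe, at a signal close to background. Its brighter probe (A_52_P47566, NM_152229, chromosome 10) had 27.2 in control cells and 15.4 in Gli2 shRNA cells, where it was not well above background. This probe was 2.14-fold lower (-1.10 ± 0.44). The 15.4 lay above the lowest measured signal of that array, so the lower bound equals this difference. It carries the same error and is no minimum for the gene. Of the 931 genes measured on the control array only, 18.2% passed 2-fold downward by the same bound. With normexp the difference was -0.41, and with median scaling (-0.96), cyclic loess (-0.88) and quantile normalization (-0.87) it also fell short of 2-fold. The second probe was above background on neither array (8.94 and 12.4) and lay the other way, at 0.20 ± 0.70.

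Of the 16 listed partners and described repressed genes of NR2E1, 14 were measured on both arrays and were within 2-fold by their brightest probe, 8 above 0 and 6 below, with a median of 0.07. The cell cycle inhibitor Cdkn1a, which NR2E1 is described to repress together with histone deacetylases, was the highest, at 930 and 1741 (0.63 ± 0.20). Bcl11a was above background on neither array. The astrocyte filament gene Gfap was near background, with 1 probe measured on each array: 21.3 and 16.5 on the brighter one and 9.28 and 18.3 on the other. S100b was the lowest measured gene, at 206 and 180 (-0.47 ± 0.21).

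Sall2, 1 of the transcription factors described to hold glioblastoma cells in a stem-like state, had 2045 and 2184 (NM_015772, chromosome 14), a difference of -0.18 ± 0.20. Its family members Sall1 (-0.01 ± 0.20), Sall3 (-0.22 ± 0.20) and Sall4 (0.15 ± 0.21) were also close to 0. The factors named with it were Pou3f2, at 260 and 192 (-0.71 ± 0.21), Sox2 (-0.06 ± 0.20) and Olig2 (-0.23 ± 0.20). None of these factors reached 2-fold.

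Over the 15 genes of that group measured on both arrays the median was -0.04, with 5 above 0 and 10 below. The highest was Nes, an intermediate filament of neural progenitors, at 0.47 ± 0.20.

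Fabp7, the radial glia fatty acid-binding protein, had 82583 in control cells and 91127 in Gli2 shRNA cells (NM_021272, chromosome 10) without saturation, a difference of -0.14 ± 0.20. Fabp5, a relative found in neural progenitors, had 90013 and 90063 (-0.28 ± 0.20), and Fabp3, a relative better known from heart muscle and neurons, 144 and 294 (0.75 ± 0.21). Rbpj, the Notch effector described to act on the Fabp7 promoter, was 2.37-fold lower at 2041 and 1044, with -0.69 on its other probe. Of the 9 genes of the Fabp family and its regulators measured on both arrays, Rbpj was the 1 past 2-fold (11.1%). Of all genes, 3.63% were past 2-fold. Nfia and Nfix, nuclear factor I genes of which family members bind the Fabp7 promoter, differed by -0.64 ± 0.20 and 0.78 ± 0.20. Fabp7 itself stayed within its software error beside these.

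Other surface proteins used to enrich glioblastoma stem cells included 14 genes measured on both arrays, 6 above 0 and 8 below, with a median of -0.07. Of these, 3 (21.4%) were past 2-fold, beside 3.63% of all genes, and with normexp, whose offset compresses dim ratios, 0 were. Itga6, the integrin alpha-6 laminin receptor, had 8480 and 5077 and was 2.02-fold lower, with -1.12 on a further probe, and its last probe, measured on the control array only, had 30.4 and 12.5. The brightest Itga6 probe fell short of 2-fold with normexp (-0.97), median scaling (-0.88), cyclic loess (-0.99) and quantile normalization (-0.99). Alcam (CD166), an adhesion molecule, was 3.73-fold lower at 59.2 and 19.2, a difference of -1.90 ± 0.35 that was -0.75 with normexp. Its other probe was above background on neither array (6.94 and 5.00). Itga7, another laminin receptor subunit, was 2.02-fold higher at 88.5 and 216, and its difference was 0.62 with normexp. The other Itga7 probe was also above background on neither array (3.05 and 4.56). Of all genes whose dimmer signal was under 100, as for Alcam and Itga7, 9.47% were past 2-fold. For signals over 1000, as for Itga6, the share was 0.724%.

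The tetraspanin gene Cd9 (0.17 ± 0.20) and the glycoprotein gene Cd24a (0.28 ± 0.20) were within 2-fold, as was the chemokine receptor gene Cxcr4 (0.42 ± 0.21). Whether these surface genes differ as a group from other genes was not tested. Of all genes measured on both arrays, 1.79% were at least 2-fold lower.

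**Figure D4:**
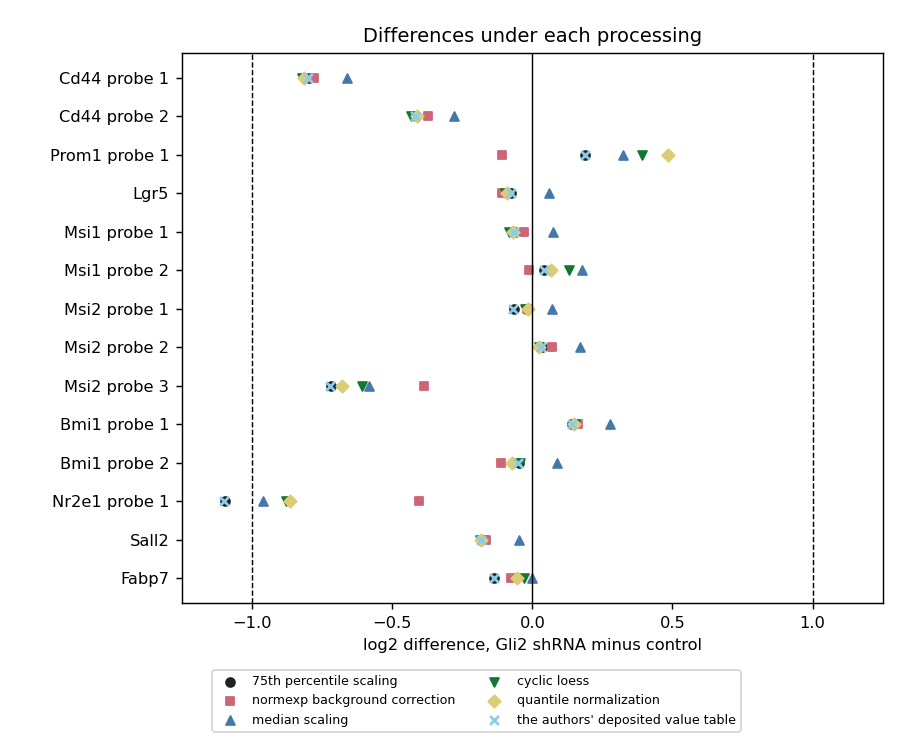
Log2 difference (Gli2 shRNA minus control, x axis) of the 14 probes measured on at least 1 array, under 6 processings of the same scans. The 2 Cd44 probes shown stay left of 0 in all 6, the first Nr2e1 probe and the third Msi2 probe move toward 0 with normexp, and the probes near 0 shift to the right with median scaling. Dashed lines mark 2-fold.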

How the data were processed

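Total RNA of 2 samples was Cy3-labelled for 1-colour Agilent arrays, per the labels' protocols. The scans were processed in Agilent Feature Extraction 12.1.0.3, per the file headers, and the deposited values are background-subtracted processed intensities, their software error and flags. The authors' deposited value table is on a log2 scale; set against the scanner values it was the log2 processed intensity minus 8.36 (control) or 8.64 (Gli2 shRNA), with column medians of -3.55 and -3.69.

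Non-control spots marked as outliers were left out (126 and 120), spots of a probe were averaged on the log2 scale, and each array's 75th percentile was subtracted. 34555 of 56595 probes matched 1 gene by unversioned accession in the RefSeq table of GRCm38.p6, used for names and chromosomes; the scan grid refers to mm9. Promoter sequences are RefSeq's. Each gene was represented by its brightest probe. The software error is mostly modelled (median 0.204); 293 probes spotted repeatedly had a median SD between spots of 0.04 on each array. A probe measured on 1 array has a lower bound, against the higher of its own signal and the lowest measured signal. Probes measured were 59.5% and 57.1%, and the number of arrays limits the precision.

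With 1 array per group no test was possible; genes were counted by a 2-fold size rule. The members and lists were chosen with earlier results of these data known. The named genes are Gli2, every member probe, direct relatives or partners, and per list up to 3 genes past 2-fold in each direction, or the highest and lowest where none passed. 1 gene that this rule names is not reported here. Has1, Has2, Has3, Spp1, Msn, Adam10, Axin2, Lrp6, the R-spondins, Sox9, Cd9, Cd24a, Cxcr4, Nfia, Nfix, Fabp3, Elavl4 and Bcl11a were added after their values were seen. The rule left out the cell type lists, and genes named from them, such as Mlc1, Aldoc and Itgam, were also picked after their values were seen. Python 3.11.15 with numpy 2.4.6 and pandas 2.3.3, and R 4.3.3 with limma 3.58.1 for normexp (median spot and background signals, offset 50), cyclic loess and quantile normalization, were used. The calculation was tested on simulated data.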

Additional observations from a re-analysis of the deposited data

How the results depend on the processing

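No paired analysis was possible because each group holds 1 array, and no replicate could be left out. Counts of genes past 2-fold depended on the processing: 528 of 14559 genes measured on both arrays in the report, 167 with normexp, 2844 of 23780 without the filter on dim probes and 325 of 12674 with signals at least 3 times the measured minimum. A 1.5-fold rule, added after seeing the data, gave 1827. The other scalings, the deposited table and the mean of probes stayed within 1.5 times of 528. Of the members, 0 were past 2-fold in the report and under all these settings except without the filter, where Nr2e1 made it 1, and with the 1.5-fold rule, where Cd44 made it 1. Over 42 results for single probes and genes and 5 alternatives, 202 of 210 values moved by less than the software error. The other 8 moved by more, all with normexp, whose offset of 50 compresses the ratios of dim signals by construction. Median scaling and the deposited table each shift every gene by a constant smaller than the software error. Their values could therefore not move by more. None of the differences past 2-fold changed sign. Weak signals limit Prom1, Fut4 and Nr2e1.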

Other observations

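Some genes outside the 10 had several probes that gave nearly the same difference without reaching 2-fold on the brightest one, and they were singled out after their values were seen. Nfix, a nuclear factor I gene of neural stem cell quiescence and glial development, had 3 measured probes at 0.72, 0.72 and 0.78, the brightest with 479 in control cells and 998 in Gli2 shRNA cells. Nfia, a nuclear factor I gene that promotes astrocyte formation, went the other way on its measured probes, at -0.64 and -0.51 (871 and 679 on the brighter one). Elavl3, a neuronal RNA-binding protein of the Hu family, gave 0.83 and 0.82 on its 2 probes, with 203 and 438 on the brighter one.

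Fabp3 gave 0.75 and 0.92 on its 2 probes. Dcx, the neuroblast microtubule protein, differed by -0.93 on its brightest probe (458 and 292) and by 2.75 on its other probe, while Tubb3, a neuronal tubulin, differed by 0.74 (781 and 1583), and of the 9 genes of the neuronal list measured on both arrays 4 lay above 0 and 5 below. Oligodendrocyte markers split 3 and 3, and of the 3 endothelial and mural markers measured on both arrays all lay below 0 (1 lay above with median scaling), with Cdh5, Cldn5 and Tek above background on neither.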
